A study of Mus musculus with 2 samples.

Results

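The single-locus let-7 genes are Mirlet7b, Mirlet7d, Mirlet7e, Mirlet7g, Mirlet7i and Mir98, which are 6 of the 2202 miRNA genes measured. They were chosen by sequence and not by level: each makes a mature miRNA with the let-7 seed, and the mature sequence of each lies at a single locus. All 6 identifiers were found in both tables. Short RNA was sequenced from the hippocampus of 25-day-old female B6CASTF1/J mice, F1 animals bred from C57BL/6J and CAST/EiJ, with no treatment or engineered allele given in the labels. There are 2 libraries, biological replicates 1 and 2 of 1 group, so the data hold levels and the spread between tissue samples but no contrast of conditions. Both carry the same donor record in the labels, which do not state whether the replicates came from separate animals. Only "layer of hippocampus" is given as the tissue, and the layer is not named. Differences between the replicates in animal, dissection or library preparation cannot be told apart.

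A miRNA is cut from a hairpin precursor by Drosha and Dicer, and the mature strand guides Argonaute to messenger RNAs that pair with its seed, bases 2 to 8 from the 5′ end. The let-7 family is known for marking the step from a proliferating to a differentiated state, and in the nervous system its members build up as neurons mature. Its best known targets include Lin28, Hmga2 and Ras transcripts, and in mouse neural stem cells let-7b and let-7d repress the orphan receptor Tlx. LIN28 in turn binds let-7 precursors and blocks their processing, so that the family is controlled after transcription as well as through its host transcripts.

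The mature 5p sequences of the 6 genes are shown because the counts rest on telling them apart from each other and from their duplicated relatives. They are RefSeq annotations on GRCm38.p6, printed 5′ to 3′ with the seed in capitals, and the last 3 lines give the mature sequences that are made at more than 1 locus each.
let-7b-5p: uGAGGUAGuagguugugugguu
let-7g-5p: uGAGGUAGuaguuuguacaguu
let-7i-5p: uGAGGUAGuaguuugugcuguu
let-7d-5p: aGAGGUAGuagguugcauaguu
let-7e-5p: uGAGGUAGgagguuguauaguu
miR-98-5p: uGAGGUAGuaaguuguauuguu
let-7a-5p: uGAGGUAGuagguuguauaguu
let-7c-5p: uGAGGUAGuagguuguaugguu
let-7f-5p: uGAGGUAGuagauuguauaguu

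All 9 sequences are 22 bases long and share the seed, and among the 6 single-locus sequences 14 of 22 positions are constant. The 8 variable positions are 1, 9, 11, 12, 16, 17, 18 and 19, counted from 1 at the 5′ end, so they lie outside the seed. Set against let-7a-5p, with its base given first, let-7b-5p has A17G and A19G, let-7g-5p has G12U and U18C, and let-7d-5p has U1A and U16C. let-7e-5p carries the single change U9G, miR-98-5p has G11A and A19U, and let-7i-5p has G12U, A17G, U18C and A19U. The closest relative of let-7b-5p is let-7c-5p, at 1 position, and that of let-7e-5p is let-7a-5p, also at 1 position. let-7g-5p and let-7i-5p differ from each other at 2 positions and share their first 16 bases. let-7d-5p and let-7i-5p are the most distant pair, with 6 differences.

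**Figure D1:**
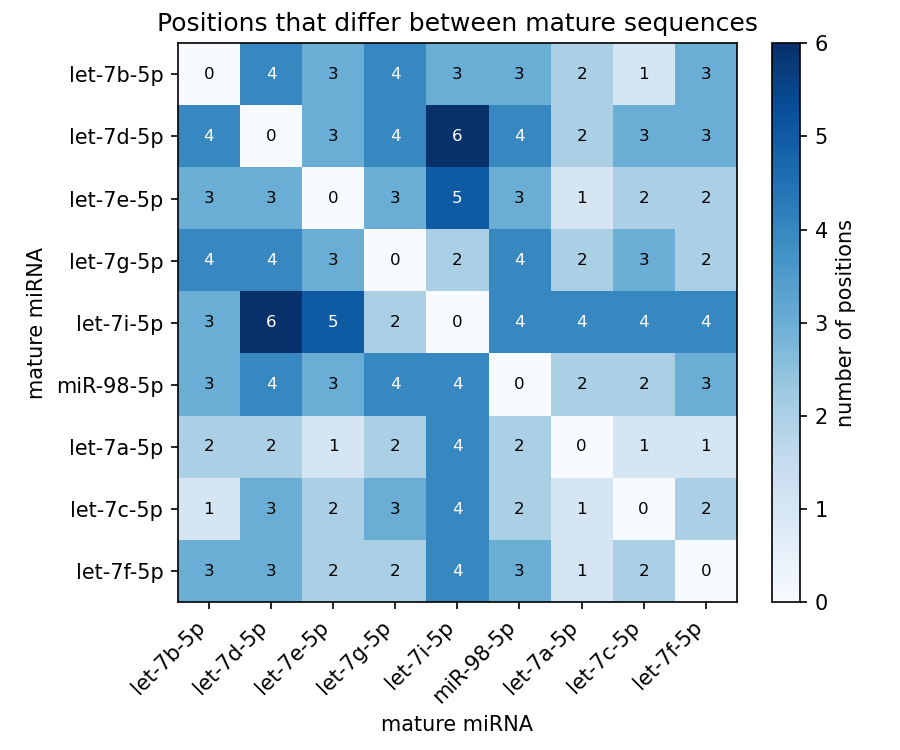
Number of positions, of 22, at which each pair of mature 5p sequences differs, for the 6 single-locus members (first 6 rows) and the 3 sequences made at more than 1 locus (last 3 rows). let-7i-5p differs from let-7d-5p at 6 positions, and let-7b-5p from let-7c-5p at 1.

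These differences set how much of a mature sequence is needed to tell its hairpin from other miRNA hairpins. Reads that match several places are in no gene count. Each of the 6 mature 5p sequences was found exactly in 1 RefSeq hairpin, and so was each of their 3p sequences. let-7a-5p, let-7c-5p and let-7f-5p were each found in 2 of the hairpins. Read from its 5′ end, let-7d-5p belonged to a single hairpin from 9 bases on and miR-98-5p from 11 bases on. For let-7b-5p, let-7e-5p, let-7g-5p and let-7i-5p this took 17 bases. Only RefSeq hairpins were searched for these lengths, so they do not give the read length that is needed for a single place in the genome. The longest stretch shared with a miRNA gene at another locus in GENCODE M21 was 16 bases for let-7b-5p (with the let-7a and let-7c genes), 16 for let-7e-5p (with Mir7k) and for let-7i-5p (with Mirlet7g), 17 for let-7g-5p (with Mir3962), 14 for let-7d-5p and 10 for miR-98-5p. Counts are per gene, so the 5p and 3p arms of a hairpin are summed.

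The 6 genes lie at 6 separate places in mm10 (positions counted from 1, GENCODE M21). Mirlet7b (ENSMUSG00000065564.1) is on the plus strand of chromosome 15 from 85707319 to 85707403 and overlaps a noncoding exon of Lncppara. Mirlet7d (ENSMUSG00000065453.1) is on the minus strand of chromosome 13 from 48536012 to 48536114 and overlaps an exon of 6720427I07Rik, a lincRNA. Mirlet7i (ENSMUSG00000065406.3) is on the minus strand of chromosome 10 from 122985640 to 122985724 and overlaps an exon of D630033A02Rik, a transcribed pseudogene. The other members sit in introns of protein-coding genes. Mirlet7g (ENSMUSG00000065440.1, chromosome 9 from 106178840 to 106178927, plus strand) is in Wdr82, a subunit of a histone methyltransferase complex. Mirlet7e (ENSMUSG00000105758.1, chromosome 17 from 17830352 to 17830444, plus strand) is in Spaca6, a gene needed for sperm and egg fusion. Mir98 (ENSMUSG00000065536.2, chromosome X from 151913214 to 151913321, plus strand) is in Huwe1, which encodes a ubiquitin ligase.

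Before the levels, the libraries themselves need a description. Gene rows held 5481053 counts in replicate 1 and 4266963 in replicate 2, while reads that matched several places made up 41.9% and 46.4% of all reads. Of the 10 neuron-enriched marker genes, 7 had a CPM (counts scaled to a total of 1000000 in gene rows) of 2 or more in both libraries. The whole list summed to 3.66% of the gene counts in replicate 1 against 4.66% in replicate 2. Its genes were split: Mir132 was 4.25-fold higher in replicate 1, and every other gene of the list had a lower CPM there. For Mir124a-1, Mir124a-3 and Mir9-2, with few counts, the counting interval of the ratio reached both sides of equality. The ratio of replicate 1 over replicate 2 was 0.532 for Mir128-1 and 0.378 for Mir137. Neuronal Mir124a, which has several near-identical loci, was close to 0: its 3 genes had 18, 2 and 4 counts in replicate 1 and 20, 13 and 4 counts in replicate 2. The libraries stood apart in other markers as well. Epithelial genes summed to 0.00724% in replicate 1, against 0.582% in replicate 2, with 4 of 5 detected. Oligodendrocyte genes summed to 0.650% and 0.0939% (3 of 3 detected, though Mir219a-1 was lower in replicate 1). Microglia and immune genes summed to 0.131% and 0.0600% (4 of 4 detected). Of these, Mir142, Mir223 and Mir155 were each lower in replicate 1 and Mir150 was higher. Endothelial Mir126a held 1.87% and 0.983%. Erythroid genes summed to 0.00881% and 0.00659% (3 of 3 detected, though Mir486 was lower in replicate 1), and liver Mir122 held 0.00323% and 0.0141%. Muscle genes summed to 0.00268% and 0.00380%, with Mir1a-1 and Mir133a-1 at 0 in both libraries and only Mir206 detected. Whether these differences in composition have a part in the let-7 values was not tested. In whole tissue, fewer cells of a type and less RNA per cell cannot be told apart.

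Counted from reads that matched a single place, 5 of the 6 single-locus let-7 genes were in the top 10 by mean CPM, and all 6 were detected in both libraries. No gene row holds reads that matched several places, so miRNAs made at several loci can be too low in this ranking. Together they held 24.3% of the gene counts in replicate 1 (95% interval 24.31 to 24.38, exact Clopper-Pearson) and 31.4% in replicate 2 (31.40 to 31.49), or 27.9% ± 5.02 (SD, n = 2). With reads that matched several places added to the denominator the mean share was 11.9%. Intervals cover counting error only. The 12 let-7 genes as a whole held 24.96% and 32.4%, so the single-locus members carried 97.5% of the family's counts in replicate 1 and 97.1% in replicate 2. Reads of let-7a, let-7c and let-7f that match more than 1 locus are in no gene row and so not in this share. The members ranked 1, 2, 3, 9, 10 and 54 among all miRNA genes by mean CPM, and 5 of the 6 had a mean CPM of at least 10000, as did 20 genes in all.

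Mirlet7b had 99521 CPM in replicate 1 and 83732 CPM in replicate 2, and was the highest gene of the whole table in replicate 1 and the second in replicate 2. Its mean was 91626 ± 11165 CPM (SD, n = 2). Mirlet7g had 57503 CPM in replicate 1 and 82569 CPM in replicate 2, a mean of 70036 ± 17724 CPM. Mirlet7i had 45686 CPM in replicate 1, where it ranked 5, and 94010 CPM in replicate 2, where it ranked 1. Its mean was 69848 ± 34170 CPM, so its SD was 48.9% of the mean, the widest spread of the 6. These 3 genes stood well above the rest of the members and held 20.3% of the gene counts in replicate 1 and 26.0% in replicate 2.

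Mirlet7d had 14921 CPM in replicate 1 and 29093 CPM in replicate 2, a mean of 22007 ± 10022 CPM. Mirlet7e had 22292 CPM in replicate 1 and 21124 CPM in replicate 2. Its mean of 21708 ± 826 CPM had the smallest relative spread of the 6, an SD of 3.80% of the mean. Mir98 had 3540 CPM in replicate 1 and 3945 CPM in replicate 2, with a mean of 3743 ± 287 CPM, and ranked 49 and 52. Counting error was small beside these differences: the exact Poisson 95% interval ran from 99257 to 99786 CPM for Mirlet7b and from 3490 to 3590 CPM for Mir98 in replicate 1.

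**Figure D2:**
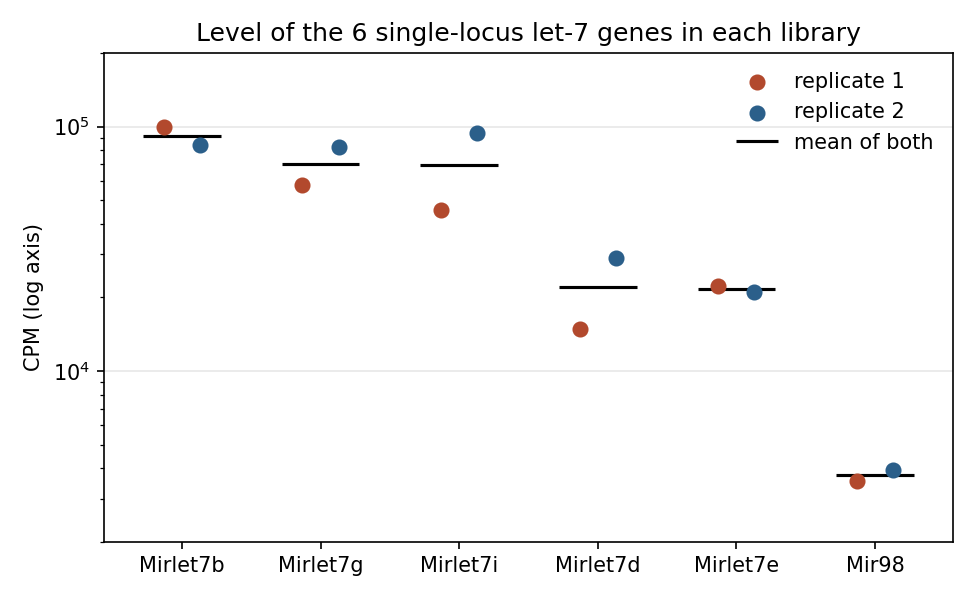
CPM (log axis) of each single-locus let-7 gene in replicate 1 (left point) and replicate 2 (right point), with a line at the mean of both. Mirlet7e and Mir98 have points close together, whereas Mirlet7i and Mirlet7d are lower in replicate 1.

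The order of the members differed between the libraries. In replicate 1 it was Mirlet7b, Mirlet7g, Mirlet7i, Mirlet7e, Mirlet7d and Mir98, and in replicate 2 it was Mirlet7i, Mirlet7b, Mirlet7g, Mirlet7d, Mirlet7e and Mir98. The values of Mirlet7g and Mirlet7i overlapped, and so did those of Mirlet7d and Mirlet7e, so the order within these pairs is not larger than the spread between replicates. Mirlet7b was above Mirlet7g by 1.73-fold in replicate 1 and by only 1.01-fold in replicate 2, and Mirlet7i overlapped it as well. That step was without overlap but narrow. The wider steps without overlap were the one from the upper 3 genes to Mirlet7d, where Mirlet7i was 3.06-fold and 3.23-fold higher in replicates 1 and 2, and the one from Mirlet7e to Mir98, at 6.30-fold and 5.35-fold.

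The family mix shifted with that order. Mirlet7b made up 40.9% of the members' counts in replicate 1 and 26.6% in replicate 2, while Mirlet7i made up 18.8% and 29.9%. Mirlet7g kept a similar part, 23.6% in replicate 1 and 26.3% in replicate 2. Mirlet7e made up 9.16% and 6.72%, Mirlet7d 6.13% and 9.25%, and Mir98 1.45% and 1.25%. Mirlet7b thus outnumbered Mirlet7i by 2.18-fold in replicate 1, against a ratio of 0.891 in replicate 2. Replicate 1 minus replicate 2, the members' summed share differed by -7.10 percentage points, to which Mirlet7i gave -4.83, Mirlet7g -2.51 and Mirlet7d -1.42 points and Mirlet7b 1.58 points.

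**Figure D3:**
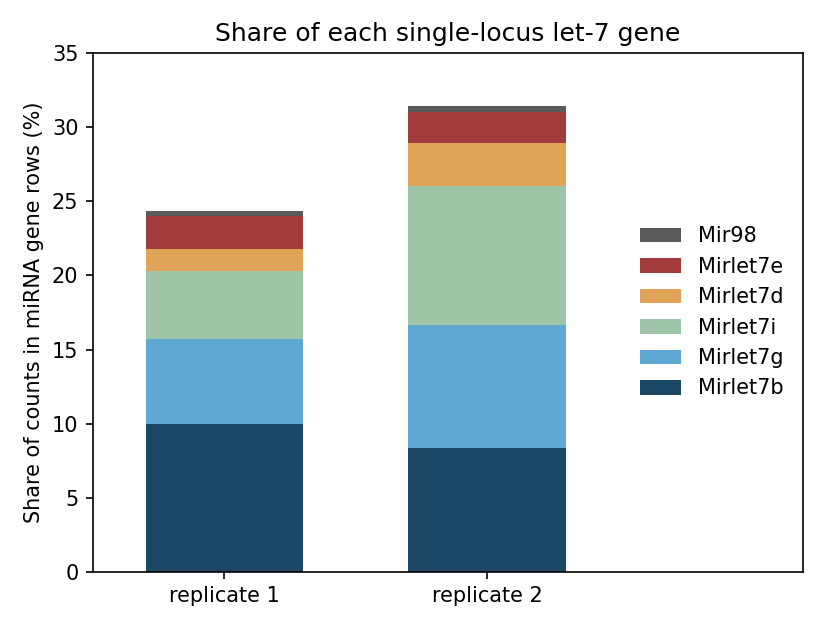
Share of all counts in miRNA gene rows (%) held by each single-locus let-7 gene, stacked, in replicate 1 and replicate 2. The stack reaches 24.3% in replicate 1 and 31.4% in replicate 2, and the segment of Mirlet7i is the one that differs most.

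Differences of each member between the libraries are given as the ratio of CPM in replicate 1 over replicate 2, with an exact 95% interval from the counts. With 1 library on each side they describe these libraries and have no replicate check. Mirlet7i was lower in replicate 1, at a ratio of 0.486 (0.484 to 0.488), which is 2.06-fold, and Mirlet7d was lower at 0.513 (0.508 to 0.517), which is 1.95-fold. The ratio of Mirlet7g was 0.696 (0.693 to 0.700), and those of Mir98, Mirlet7e and Mirlet7b were 0.897 (0.879 to 0.916), 1.06 (1.05 to 1.06) and 1.19 (1.18 to 1.19). On the log2(CPM + 1) scale they ran from -1.04 for Mirlet7i to 0.25 for Mirlet7b.

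A difference of at least 1.5-fold was reached by 2 of the 6 members, both lower in replicate 1. Among the 433 detected genes 63.0% differed that much (23.6% higher and 39.5% lower in replicate 1). So did 69.3% of the 114 genes with a mean CPM of at least 1000 and 60.0% of the 20 genes with at least 10000. These sets include members, 5 of them among the 20. With edgeR's TMM scaling 61.9% of the detected genes reached 1.5-fold. Of the members, Mirlet7b then also reached it, at 1.52-fold higher in replicate 1. Mirlet7d and Mirlet7i stayed lower at ratios of 0.658 and 0.623, and Mir98 turned from slightly lower to slightly higher (1.15). The median ratio of the members was -0.34 on the log2 scale, beside -0.27 over the detected genes, and the largest difference of any member, 2.06-fold, stood beside a maximum of 4.25-fold among the 20 genes of at least 10000 CPM. With TMM the median of the detected genes was 0.09, so directions of small differences depend on the scaling.

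**Figure D4:**
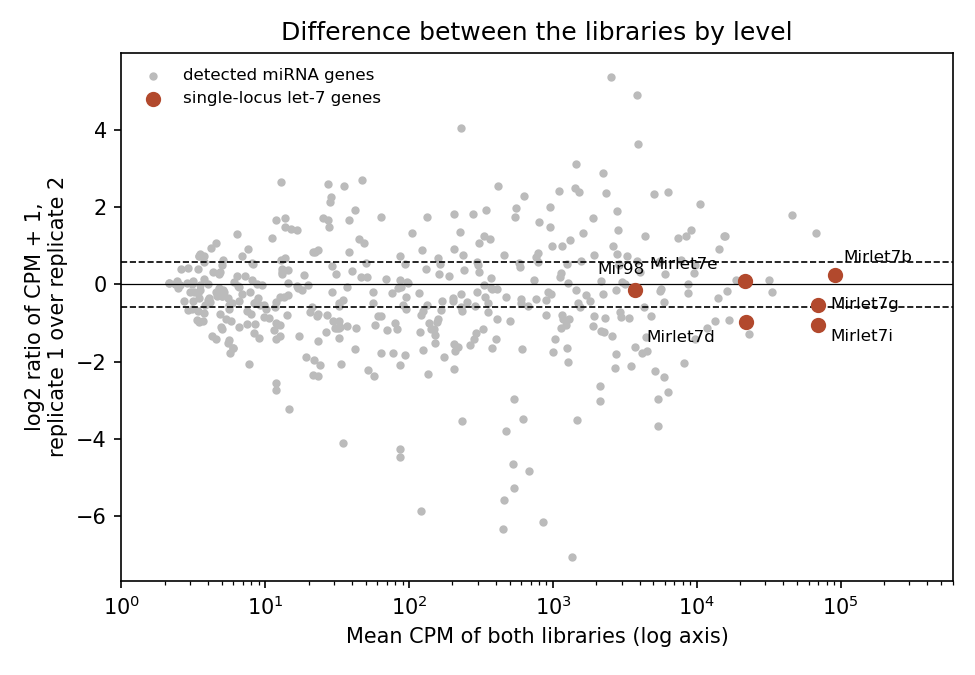
Log2 ratio of CPM + 1, replicate 1 over replicate 2, against the mean CPM of both libraries (log axis), for detected miRNA genes (grey) and the single-locus let-7 genes (coloured, named); dashed lines mark 1.5-fold. Mirlet7i and Mirlet7d lie below the lower line and the other 4 members lie between the lines.

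Of the members, 4 lie close to other miRNA genes on the same strand, so each cluster gives ratios within a library that do not depend on scaling. Mir98 lies 785 bases downstream of Mirlet7f-2 in Huwe1. Its counts were 19403 in replicate 1 and 16835 in replicate 2, against 14334 and 12442 for Mirlet7f-2. The count of Mir98 was 1.35 times that of its neighbour in both libraries. Mirlet7f-2 is counted without the reads it shares with Mirlet7f-1, so this level says nothing of which gene is higher. Between the libraries, the ratio of these ratios was 1.00 (95% counting interval 0.969 to 1.03). Of the 108 pairs of detected miRNA genes next to each other on a strand within 10000 bases, none had closer log2 ratios between the libraries, and the median pair differed by 0.81. This pair and its place among the pairs were singled out after the values were seen.

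Mirlet7e lies between Mir99b and Mir125a, 94 bases from the first and 367 from the second. Mir125a, a homologue of the worm lin-4 that represses Lin28 in mammals, followed Mirlet7e closely: it had 19548 CPM in replicate 1 and 18000 CPM in replicate 2, so that Mirlet7e was 1.14-fold and 1.17-fold above it. Mir99b, at the 5′ end of the cluster, did not. It had 22191 CPM in replicate 1 and 9382 CPM in replicate 2, and Mirlet7e was 1.00 times and 2.25 times its level. Of the 108 adjacent pairs, 2 had closer log2 ratios than Mirlet7e and Mir125a, and 72 had closer ones than Mirlet7e and Mir99b.

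Mirlet7d is the last gene of a cluster with Mirlet7a-1 and Mirlet7f-1 on chromosome 13. Mirlet7a-1 was lower in replicate 1 as Mirlet7d was, with 283 CPM there and 529 CPM in replicate 2, so that Mirlet7d was 52.8 times its level in replicate 1 and 55.0 times in replicate 2. For Mirlet7f-1, at 109 and 126 CPM, these multiples were 137 and 230. Mirlet7b lies 621 bases downstream of Mirlet7c-2, which had 2404 CPM in replicate 1 and 4400 CPM in replicate 2. The 2 genes differed in opposite directions, and Mirlet7b was 41.4 times its neighbour in replicate 1, against 19.0 times in replicate 2. Mirlet7a-1, Mirlet7f-1 and Mirlet7c-2 are counted without the reads that match their copies, which raises these multiples. For Mirlet7a-1 and Mirlet7c-2 the 5p and the 3p sequence were each found in 2 hairpins, and they have the same 3p sequence. An exact, full-length read of either arm thus matches more than 1 place and is in no gene row, so their ratios rest on other reads. Mirlet7g and Mirlet7i have no detected miRNA gene on the same strand within 10000 bases.

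**Figure D5:**
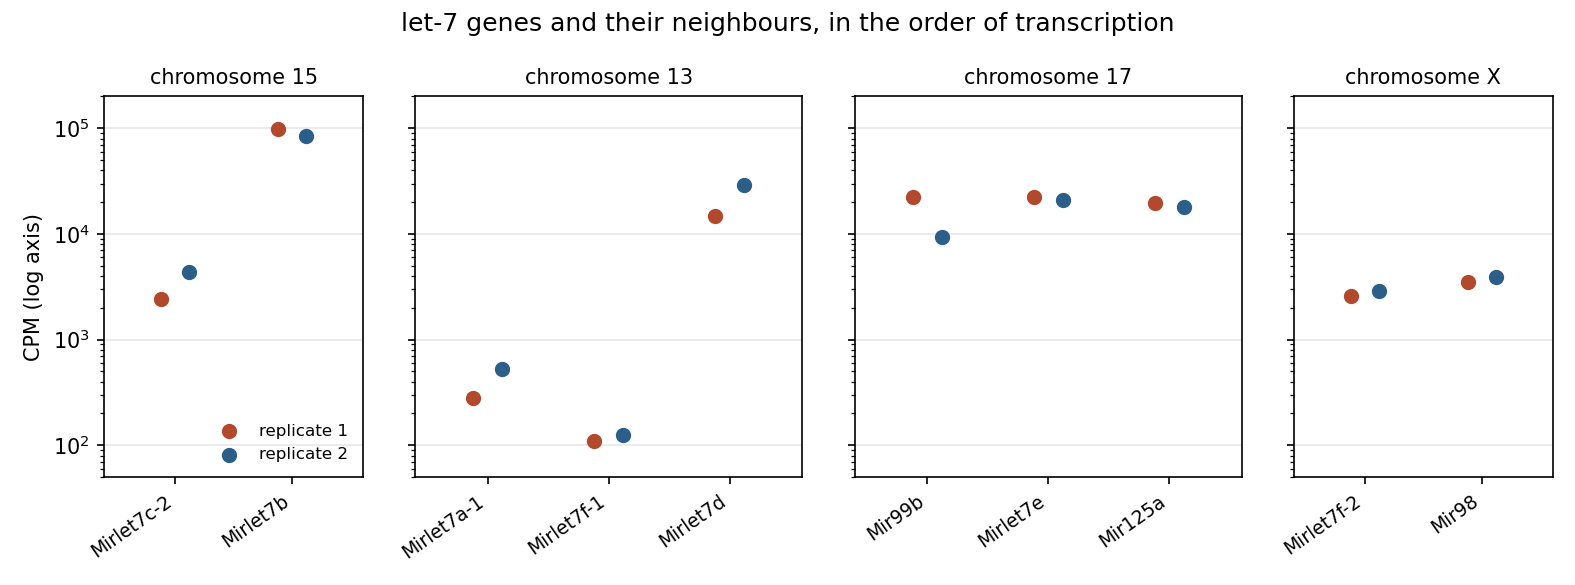
CPM (log axis) in replicate 1 (left points) and replicate 2 (right points) of the 4 clustered single-locus let-7 genes and their miRNA neighbours, each panel in the order of transcription. Mir98 and Mirlet7f-2 keep the same distance in both libraries. Mir99b is 2.37-fold higher in replicate 1 than in replicate 2, and Mirlet7e only 1.06-fold.

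The 6 duplicated relatives were counted only through reads that match a single place, and their mean CPM ran from 118 for Mirlet7f-1 to 3402 for Mirlet7c-2. Past 1.5-fold, 4 of these 6 were lower in replicate 1 and none was higher, beside the 2 and 0 of the single-locus genes and the 39.5% of all detected genes that were lower. This count depends on the scaling: with TMM or DESeq2 size factors 1 of the 6, Mirlet7a-2, was past 1.5-fold, and the Mirlet7f genes turned to ratios above 1 (1.11 and 1.15 for Mirlet7f-1 and Mirlet7f-2 with TMM). Mirlet7a-2 had 105 CPM in replicate 1 and 207 CPM in replicate 2, and Mirlet7c-1 had 655 and 1130 CPM. Among the 6 neighbours in let-7 clusters, the Mir99, Mir100 and Mir125 genes, 1 was higher in replicate 1 (Mir99b) and 1 lower (Mir125b-1), also with TMM, beside 63.0% of the detected genes past 1.5-fold in either direction (61.9% with TMM). Mir125b-1 had 1321 CPM in replicate 1 and 5700 CPM in replicate 2. Mir99a and Mir100 had ratios of 1.09 and 0.928 (1.40 and 1.19 with TMM), and Mir125b-2 one of 0.718.

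Outside the 12 let-7 genes, those with the full seed had 4 counts or fewer. RefSeq lists the seed in 2 further mature sequences, of Mir7k and Mir1961. Mir7k had 4 counts in replicate 1 and 0 in replicate 2, where a count of 0 allows up to 0.703 CPM. Mir1961 had 0 counts in both, which allows up to 0.547 CPM in replicate 1 and 0.703 CPM in replicate 2. RefSeq sequences of 2 more genes share only the first 6 of the 7 seed bases. Mir7j, the gene of let-7j, added after its values were seen, had 93 counts (17.0 CPM) in replicate 1 and 125 counts (29.3 CPM) in replicate 2. Mir202, known from the gonads, had 7 counts in replicate 1 and 1 in replicate 2.

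In the ranking by mean CPM the 3 highest members were followed by Mir139 (95828 CPM in replicate 1 and 38073 CPM in replicate 2). Mirlet7d and Mirlet7e stood between Mir149 (13509 and 32894 CPM) and Mir125a. Mir98 stood between Mir29a, with 7438 CPM in replicate 1 and 248 CPM in replicate 2, and Mir181b-2, with 1825 and 5657 CPM. Both neighbours of Mir98 in rank thus varied far more between the libraries than Mir98 did. The genes of at least 1000 CPM with the log2 ratio nearest to each member were Mir541 for Mirlet7b (0.28), Mir383 for Mirlet7g (-0.49), Mir872 for Mirlet7i (-1.05), Mir652 for Mirlet7d (-0.96), Mir143 for Mirlet7e (0.07) and Mirlet7f-2 for Mir98 (-0.16). This likeness is over 2 libraries only.

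The stretch between the 2 mature arms of the hairpin is shown for 5 of the genes because LIN28 is known to bind let-7 precursors there, through a GGAG motif near the 3p arm. The sequences are from RefSeq on GRCm38.p6, 5′ to 3′, with GGAG in capitals where a script found it.
Mirlet7b: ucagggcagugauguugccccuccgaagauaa
Mirlet7g: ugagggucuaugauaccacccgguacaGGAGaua
Mirlet7i: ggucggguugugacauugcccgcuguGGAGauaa
Mirlet7d: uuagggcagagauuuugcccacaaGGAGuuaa
Mirlet7e: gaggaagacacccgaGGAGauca

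The letters GGAG, searched on the strand of the hairpin, were in this stretch in 4 of these 5 genes, 3 bases before the 3p arm in Mirlet7g and 4 bases before it in Mirlet7i, Mirlet7d and Mirlet7e. They were not in that of Mirlet7b. Of the 644 RefSeq hairpins with both arms annotated, 8.07% hold GGAG between the arms, as do 25.0% of the 52 whose stretch is 23 to 34 bases long, the range of these 5. Nothing about binding can be read from these letters.

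Counting by strand mattered for a single member. Mirlet7e lies opposite the miRNA gene Gm25927, annotated on the minus strand over the same bases. In the column without strand Mirlet7e had 0 counts in both libraries, against 122182 in replicate 1 and 90136 in replicate 2 on its own strand. The same 122182 and 90136 counts stood under Gm25927 in the column for the opposite strand. The other 5 members differed by at most 14 counts between these columns.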

How the data were processed

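Per the deposited text beside each table, reads were placed on mm10 and counted over GENCODE M21. The names of the aligner, trimmer and counter were not given in the sources used here. The authors' deposited values are whole-number read counts per gene, without strand and on each strand. No source names the columns, so strand was read from the values, and the strand column with most counts was used. The 4 rows that name no gene (unmapped 17.1% and 17.2% in replicates 1 and 2, several places, no gene 5.56% and 5.17%, ambiguous) stayed out of totals.

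CPM were computed over the 2202 gene rows, all matched to GENCODE M21. Detected means 2 CPM or more in both libraries. Log2 ratios use CPM + 1. No p-values were computed, since each side holds 1 library. Ratio intervals are exact binomial, and those of ratios within a cluster come from the standard error of the log ratio of the 4 counts. PCR copies are not independent, so intervals and floors of 3 counts cover counting error only. RefSeq hairpins matched 968 of the genes by symbol. The stretch between the arms of 1 member is not reported here. The ratio steps were tested on artificial counts. Alternatives used edgeR 4.0.16 (TMM) and DESeq2 1.42.0 (size factors), with SciPy 1.17.1.

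Genes named are the members, their relatives and neighbours, the seed genes, the nearest genes in rank and ratio, and marker lists. Members, lists and alternatives were chosen with earlier results of these data known, and the scaling check of the relatives was added after seeing the data.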

Additional observations from a re-analysis of the deposited data

Results flagged for a closer look

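The column for the opposite strand was not used for any level or ratio of the let-7 genes. Mirlet7b had 7 counts there in replicate 1 and 14 in replicate 2, above the 3 counts that a count of 0 allows, beside 545481 and 357280 counts on its own strand.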

How the results depend on the processing

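The mean share of the members was 27.9%, and 24.3% to 31.4% when either replicate was left out. It fell to 11.9% when reads with several places were added to the denominator, by construction. Each mean CPM moved by more than 1 SD with that denominator and with all reads of the table, and that of Mirlet7e was 0 in the column without strand. Mean CPM moved by less than 1 SD under TMM and DESeq2 scaling. Leaving out either of 2 replicates only returns the other's value, which shows no stability: for Mirlet7i, with a mean of 69848 CPM, it gave 45686 CPM without replicate 2 and 94010 CPM without replicate 1. The number of members past 1.5-fold, 2, was 3 with TMM or DESeq2 size factors, where Mirlet7b joined (log2 ratio 0.61 in both), and 1 at 2-fold. Beside these, 61.9% of the 433 detected genes were past 1.5-fold with TMM and 61.7% with DESeq2, and 188 were past 2-fold. Without the let-7 family in the totals Mirlet7g passed 1.5-fold (log2 ratio -0.67) and Mirlet7e changed sign within it (-0.07). Mir98 changed sign within it under TMM, DESeq2 and the larger denominator (0.20, 0.20 and 0.03). In a check added after seeing the data, the 4 duplicated let-7 genes past 1.5-fold were 1 with TMM or DESeq2, and the cluster neighbours stayed at 2. Of the 433 detected genes, 273 (63.0%) were past 1.5-fold, and with no filter on low values 468 of 820 genes (57.1%) were. Of the 273, 62.6% were lower in replicate 1, against 48.1% of 268 with TMM and 47.9% of 267 with DESeq2. Pseudocounts of 0 and 10 left every member on its side of 1.5-fold. No paired analysis was possible because there is a single group. With 2 libraries, no SD here is precise.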
